A study of Mus musculus with 4 samples.

Results

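The branched-chain amino acids leucine, isoleucine and valine are broken down mainly in mitochondria, and 10 genes of this route were followed here among the 38293 genes of the deposited table. They were chosen by name: the aminotransferases Bcat1 and Bcat2, the ketoacid dehydrogenase subunits Bckdha, Bckdhb and Dbt, the kinase Bckdk and phosphatase Ppm1k that control that complex, and the downstream enzymes Ivd, Hibch and Hibadh. All 10 were present in the table and passed the filter on low counts, which left 13711 genes for testing. The choice of the 10 was made with earlier results of these data known. RNA came from ventricles, with the atria and the region of the valves cut away, of single C57BL/6 mouse embryos at stage E12.5. All 4 embryos were from 1 litter, number 6, and all carried Hif1a with both alleles floxed, written Hif1alphaflox/flox. In 2 of them 1 allele of Nkx2-5 carried Cre recombinase (Nkx2.5Cre/+), which makes them the conditional knockout, here cKO. The other 2 had no Cre (Nkx2.5+/+) and are the controls. Nkx2-5 is active in heart muscle precursors, so the comparison asks what changes in the ventricle when these cells lose Hif1a, the part of the HIF-1 factor that responds to oxygen. No embryos with Cre and unfloxed Hif1a were analysed here, so effects of the Cre or of the altered Nkx2-5 allele cannot be told apart from those of Hif1a deletion.

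An aminotransferase first moves the amino group to a ketoglutarate acceptor, and this step is reversible. The branched-chain ketoacid dehydrogenase complex then removes the carboxyl group in a step that commits the carbon to breakdown. Its kinase switches the complex off by phosphorylation and its phosphatase switches it on. The later enzymes yield acetyl-CoA, acetoacetate and propionyl-CoA, which can feed the tricarboxylic acid cycle. In the adult heart the mitochondrial aminotransferase is the usual form, while the cytosolic form is known from embryonic, neural and tumour tissue.

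The libraries held between 8561687 (control replicate 2) and 19801300 expected counts (cKO replicate 3). Levels are given as CPM, the count scaled to a common library size, and 1 count was worth between 0.0502 and 0.118 CPM. The 13 heart muscle markers summed to between 42136 and 46393 CPM, with none at 0 in every library. Xist stood at 2.11 CPM in cKO replicate 3 and between 1754 and 2097 CPM in the other libraries. By Xist alone, with no Y-linked gene shown, cKO replicate 3 is taken as the 1 male. Hif1a was at 716 and 663 CPM in cKO and 530 and 552 CPM in control (adjusted p = 0.317); the deposited value covers the gene as a whole and so does not check the loss of its floxed part. Nkx2-5 was at 44.3 and 42.1 CPM in cKO and 55.9 and 64.9 CPM in control (adjusted p = 0.153). Unless another test or setting is named, adjusted p values are from edgeR's quasi-likelihood test with Benjamini-Hochberg adjustment over the 13711 genes. Fold changes are cKO over control, and CPM values are scaled by TMM unless stated otherwise. Replicates are single embryos of 1 litter.

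No member passed the test at an adjusted p under 0.05, in either direction, against 0.511% of all genes tested (70 genes). Every one of the 10 nevertheless had a log2 fold change above 0, from 0.057 for Hibadh to 1.20 for Bcat1, with a median of 0.13; over all genes 49.9% were above 0 and the median was -0.00031. The members' median was 0.24 without control replicate 2 and 0.19 without cKO replicate 3, where 8 of the 10 stayed above 0. At an unadjusted p under 0.05 there were 4 members, Bcat1, Bckdha, Dbt and Hibch, against 6.97% of all genes. DESeq2 and limma-voom called 0 members as well. For Bcat1 the adjusted p was 0.0583 by the DESeq2 test, close to the threshold, and 0.418 by limma-voom. In 5 members, Bcat1, Bckdha, Dbt, Hibch and Ppm1k, both cKO libraries stood above both controls, against 19.4% of all genes. In 0 members both stood below, against 18.8%. The same shares of all genes apply to the counts of the further lists below. In RNA from whole ventricles, fewer cells of a type and less RNA per cell cannot be told apart.

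**Figure D1:**
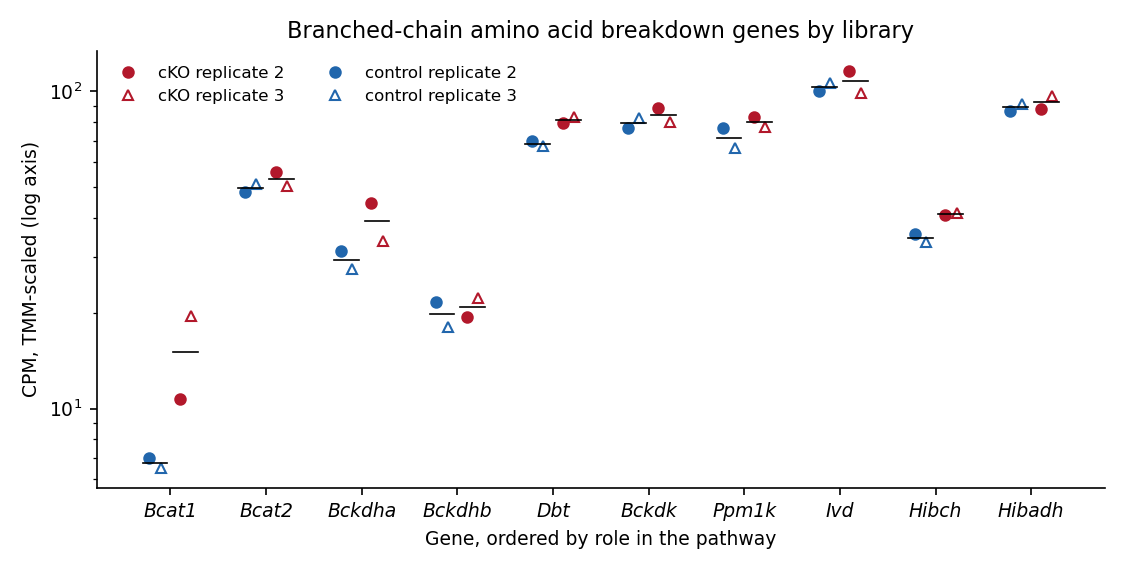
Each point is the level of a member gene in 1 library, in TMM-scaled CPM on a log axis, with cKO in red and control in blue and a black bar at the mean of each group of 2. Bcat1 shows the widest gap, with cKO at 10.7 and 19.5 CPM and control at 6.97 and 6.51 CPM, while the groups overlap for Bcat2, Bckdhb, Bckdk, Ivd and Hibadh.

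Bcat1 encodes the cytosolic aminotransferase (ENSMUSG00000030268, GRCm38 chromosome 6, 144993835 to 145076184, minus strand). Its level was 10.7 CPM in cKO replicate 2 and 19.5 CPM in cKO replicate 3, against 6.97 and 6.51 CPM in control replicates 2 and 3. Both cKO libraries were above both controls, and the cKO embryos differed from each other far more than the controls did. The fold change of Bcat1 was 2.30, a log2 fold change of 1.20 ± 0.29 (SE) with a 95% interval of 0.54 to 1.86, and the gene did not pass (adjusted p = 0.249). It ranked 157 of 13711 by p. Without cKO replicate 2 the log2 fold change was 1.54, and without cKO replicate 3 it was 0.67. Each of these fits leaves 1 cKO library, whose spread is taken to equal that of the controls. The adjusted p of Bcat1 was under 0.05 in 1 of 13 alternatives, the fit without cKO replicate 2, and was highest in the test against a 1.5-fold change. The expected counts behind these levels were 106 and 389 in cKO and 58.6 and 59 in control.

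The high library for Bcat1 was also the deepest and, by its low Xist, the only 1 taken as male. With its counts thinned to the mean total of the others, the log2 fold change of Bcat1 was 1.18 (adjusted p = 0.238). Thinning lowers all genes by the same share, so the fold change was bound to stay close to its value. It cannot show what part depth had. Summed over 9 cushion mesenchyme markers, the level was 1721 and 2312 CPM in cKO replicates 2 and 3 and 2011 and 2247 CPM in controls, with none at 0. The 11 erythroid markers summed to 2661 and 6437 CPM in cKO and 5061 and 5817 CPM in control, also with none at 0. Cushion and erythroid sums were lowest in cKO replicate 2 and highest in cKO replicate 3, while Bcat1 was lowest in control replicate 3 and highest in cKO replicate 3. Of these 2 lists no marker passed the test (1 cushion and 0 erythroid markers at an unadjusted p under 0.05, 0 by DESeq2 or limma-voom); those with the smallest p were the cartilage collagen Col2a1 (log2 fold change -1.67, adjusted p = 0.545) and the red cell anion exchanger Slc4a1 (-0.66, adjusted p = 0.737). Col2a1 passed at -0.99 without cKO replicate 2 (adjusted p = 0.00521) and at -3.71 without cKO replicate 3 (adjusted p = 4.48e-05). Slc4a1 stood at -0.17 without cKO replicate 2 and passed at -1.52 without cKO replicate 3 (adjusted p = 0.00167), where 6 of the erythroid markers and 1 of the cushion markers passed; without cKO replicate 2, 2 cushion markers did. The part of sex, of depth and of cell makeup in the Bcat1 difference was not tested.

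Bcat2, the mitochondrial aminotransferase (ENSMUSG00000030826, chromosome 7, 45570153 to 45589711, plus strand), had 55.7 and 50.2 CPM in cKO and 48.3 and 50.9 CPM in control. The groups overlapped, since cKO replicate 3 lay between the controls. Its log2 fold change was 0.088 ± 0.096 (SE), with a 95% interval of -0.13 to 0.31 (adjusted p = 0.888). Per kilobase of exon, Bcat2 exceeded Bcat1 36.5-fold and 41.2-fold in the controls and 27.3-fold and 13.5-fold in cKO replicates 2 and 3. The mitochondrial form was thus the main aminotransferase transcript in every library, and the ratio was lower in both cKO embryos than in both controls. The size of the ratio rests on the exon length used: with all GENCODE transcripts counted in, its mean was 17.6 in control and 9.28 in cKO.

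The windows before the start sites of these 2 genes are shown because Bcat1 had the largest difference and Bcat2 the same enzymatic role without one of that size. They are the 250 bases before each RefSeq start on GRCm38.p6, read 5′ to 3′ along the gene. Capitals mark ACGTG or GCGTG on either strand (CACGT or CACGC when read on the other), the core letters of the element that HIF-1 binds.
Bcat1, distal start, chr6:145076158-145076407 on the minus strand: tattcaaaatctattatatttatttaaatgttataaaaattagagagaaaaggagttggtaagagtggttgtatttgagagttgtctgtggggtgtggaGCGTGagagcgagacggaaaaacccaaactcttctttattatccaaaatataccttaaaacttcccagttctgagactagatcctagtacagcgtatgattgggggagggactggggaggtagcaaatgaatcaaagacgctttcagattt
Bcat1, proximal start, chr6:145048813-145049062 on the minus strand: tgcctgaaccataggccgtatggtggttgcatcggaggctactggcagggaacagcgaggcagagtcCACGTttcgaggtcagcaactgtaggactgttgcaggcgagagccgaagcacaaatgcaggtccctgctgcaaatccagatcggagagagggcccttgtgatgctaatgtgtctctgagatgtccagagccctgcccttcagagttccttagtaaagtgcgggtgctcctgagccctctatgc
Bcat2, first start, chr7:45569903-45570152 on the plus strand: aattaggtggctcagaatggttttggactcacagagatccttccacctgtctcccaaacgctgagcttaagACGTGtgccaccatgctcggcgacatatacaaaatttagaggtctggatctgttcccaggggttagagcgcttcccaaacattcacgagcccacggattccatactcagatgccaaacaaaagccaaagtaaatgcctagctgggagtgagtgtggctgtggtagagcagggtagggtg
Bcat2, second start, chr7:45571029-45571278 on the plus strand: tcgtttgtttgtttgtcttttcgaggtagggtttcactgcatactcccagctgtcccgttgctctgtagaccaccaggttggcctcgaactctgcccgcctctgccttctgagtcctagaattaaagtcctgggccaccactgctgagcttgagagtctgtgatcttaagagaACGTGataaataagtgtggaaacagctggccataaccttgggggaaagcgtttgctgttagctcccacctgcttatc
Each of the 4 stretches holds 1 such match. Over the 300 bases that also take in 50 after the start, the window of the proximal Bcat1 start holds 3 more, all GCGTG, with first bases at 1, 15 and 24, counted from 1 at the start site, and the last on the other strand. Of the members, 9 have at least 1 RefSeq window of 300 bases (250 before the start and 50 after), 12 windows in all, and 7 of the 12 (58.3%) hold ACGTG or GCGTG. Among all 32851 windows of that length 43.8% do. The 7 windows belong to Bcat1, Bcat2, Bckdha, Bckdhb and Hibadh. The motif TGATGNAA, part of the site of the amino acid response factor ATF4, was searched on both strands and was found in 0 of the 12, against 3.97% of all windows. The E-box CACGTG, which contains ACGTG, was found in 0 of the 12, against 7.15%. Counts per gene do not show which start site was used.

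Of the subunits of the dehydrogenase complex, Bckdha encodes the alpha chain of its decarboxylase, the part that the kinase phosphorylates (ENSMUSG00000060376, chromosome 7, 25629946 to 25658981, minus strand). It had 44.5 and 33.8 CPM in cKO and 31.4 and 27.6 CPM in control. Both cKO libraries were above both controls, here with cKO replicate 2 the higher. The log2 fold change was 0.39 ± 0.15 (SE), with a 95% interval of 0.058 to 0.73 (adjusted p = 0.640). It was 0.20 without cKO replicate 2 and 0.59 without cKO replicate 3. In GENCODE the gene B3gnt8, on the opposite strand, shares 1171 of the 1899 exon bases of Bckdha (61.7%), though not through the transcript that the deposited table lists for it. B3gnt8 had between 11 and 30 expected counts, and with both genes summed the log2 fold change of Bckdha was 0.36 (adjusted p = 0.648).

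Bckdhb, the beta chain of the same decarboxylase (ENSMUSG00000032263, chromosome 9, 83925145 to 84124240, plus strand), had 19.4 and 22.3 CPM in cKO and 21.8 and 18.1 CPM in control. The 4 values interleave. Its log2 fold change was 0.079 ± 0.14 (SE), with a 95% interval of -0.24 to 0.40 (adjusted p = 0.932). Dbt, the core that carries the lipoyl arm (ENSMUSG00000000340, chromosome 3, 116513070 to 116549981, plus strand), had 79.3 and 82.7 CPM in cKO and 69.6 and 67.2 CPM in control. Replicates lay close together and the groups did not overlap, but the difference was small, at a log2 fold change of 0.25 ± 0.084 (SE), with a 95% interval of 0.052 to 0.44 (adjusted p = 0.593). Dld, the lipoamide dehydrogenase that this complex shares with others, had 312 and 327 CPM in cKO and 302 and 283 CPM in control, a log2 fold change of 0.13 ± 0.083 (adjusted p = 0.788).

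Per kilobase of exon the alpha chain exceeded the beta chain 1.12-fold and 1.18-fold in the controls. In cKO the ratio was 1.78 in replicate 2 and 1.17 in replicate 3. On this exon length the chains' transcripts were thus near parity in 3 libraries, and cKO replicate 2 stood apart. Dbt exceeded Bckdhb 1.43-fold and 1.66-fold in the controls, and 1.82-fold and 1.65-fold in cKO replicates 2 and 3, so these ratios overlapped between groups. The parity of the chains rests on the exon length used. With exons of all GENCODE transcripts, the controls had 16.6 and 14.5 CPM per kilobase for Bckdha and 12.1 and 10.0 for Bckdhb.

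The switch of the complex showed no separation of the groups on the kinase side. Bckdk, the kinase (ENSMUSG00000030802, chromosome 7, 127904082 to 127910221, plus strand), had 88.6 and 79.8 CPM in cKO and 76.6 and 82.7 CPM in control, a log2 fold change of 0.077 ± 0.093 (SE; 95% interval -0.14 to 0.29, adjusted p = 0.896). Ppm1k, the phosphatase (ENSMUSG00000037826, chromosome 6, 57506502 to 57535468, minus strand), had 83.3 and 77.4 CPM in cKO and 76.7 and 66.3 CPM in control. For Ppm1k the groups did not overlap, by less than 1 CPM, and the controls differed from each other by more than the group means did. Its log2 fold change was 0.17 ± 0.10 (SE; 95% interval -0.063 to 0.40, adjusted p = 0.771), and ran from 0.065 without control replicate 3 to 0.28 without control replicate 2. The ratio of Bckdk to Ppm1k per kilobase was 1.60 and 1.55 in cKO, and both values lie between those of the controls, whose mean was 1.69 ± 0.27 (SD, n = 2).

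Downstream of the complex the routes part. Ivd, which acts on the leucine branch (ENSMUSG00000027332, chromosome 2, 118861954 to 118882909, plus strand), had 116 and 98.9 CPM in cKO and a mean of 103 ± 4.21 CPM in control (SD, n = 2). The cKO values lie on either side of both controls, and the log2 fold change was 0.059 ± 0.10 (SE; 95% interval -0.17 to 0.29, adjusted p = 0.928). On the valine branch Hibch, which frees hydroxyisobutyrate from coenzyme A (ENSMUSG00000041426, chromosome 1, 52844929 to 52920986, plus strand), had 40.7 and 41.4 CPM in cKO and 35.5 and 33.4 CPM in control. Both cKO libraries were above both controls and close to each other, with a log2 fold change of 0.26 ± 0.091 (SE; 95% interval 0.046 to 0.46, adjusted p = 0.623). Hibadh, the next enzyme, which oxidises hydroxyisobutyrate (ENSMUSG00000029776, chromosome 6, 52546228 to 52640389, minus strand), had 87.8 and 97.0 CPM in cKO and 86.4 and 91.5 CPM in control. The groups overlapped, at a log2 fold change of 0.057 ± 0.089 (SE; 95% interval -0.15 to 0.26, adjusted p = 0.925).

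**Figure D2:**
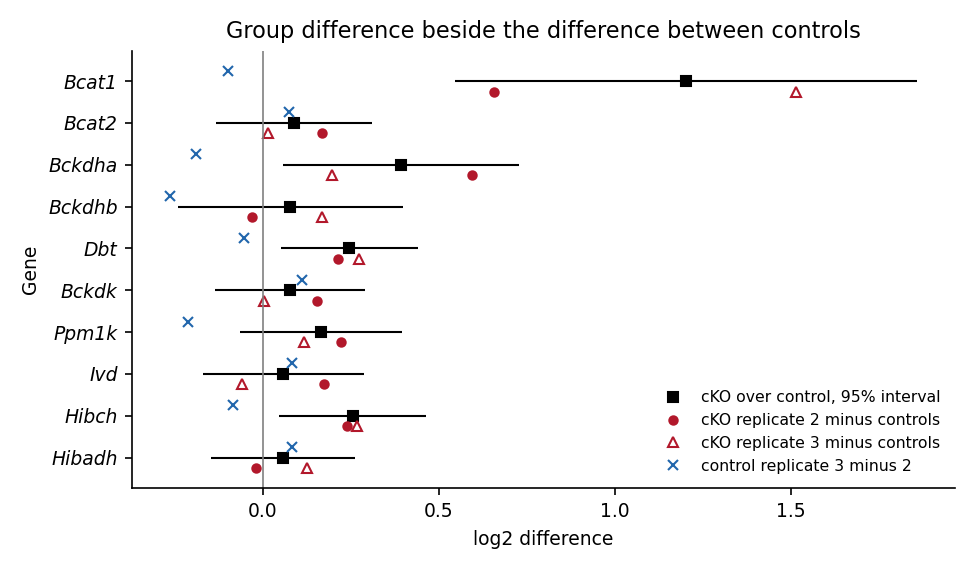
Black squares give the log2 fold change of each member with its unadjusted 95% interval, red marks give each cKO library against the mean of the controls, and blue crosses give control replicate 3 minus control replicate 2, all on a log2 axis. The intervals of Bcat1, Bckdha, Dbt and Hibch lie above 0, and for Bckdhb, Bckdk, Ppm1k, Ivd and Hibadh the controls differ from each other by more than the groups do (-0.26 against 0.079 for Bckdhb).

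Compared per kilobase of exon, which allows levels of different genes to be set side by side, the controls ranked Hibadh highest at 40.0 ± 1.62 CPM per kilobase (SD, n = 2), followed by Bcat2 at 28.0 ± 1.04. Bckdk at 21.6 ± 1.17 and Dbt at 20.7 ± 0.53 overlapped. Ivd followed at 18.7 ± 0.77 CPM per kilobase. Bckdha at 15.5 ± 1.44, Hibch at 14.2 ± 0.60, Bckdhb at 13.5 ± 1.76 and Ppm1k at 12.9 ± 1.33 each overlapped with the next, so that their order is not resolved. Bcat1 was last by a wide gap, at 0.72 ± 0.036 in control and 1.62 ± 0.67 CPM per kilobase in cKO. This order rests on the exon length used. With exons of all GENCODE transcripts, Hibadh had 8.49 and 8.99 CPM per kilobase in the controls and Hibch 5.85 and 5.51, so that both lay beneath Bckdk (20.7 and 22.4), Dbt, Ivd, Bckdha, Ppm1k and Bckdhb. On that length Bcat2 (12.4 and 13.1) also lay beneath Bckdk, Dbt, Ivd and Bckdha. Bcat1 stayed last there, at 0.75 and 0.70 CPM per kilobase.

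**Figure D3:**
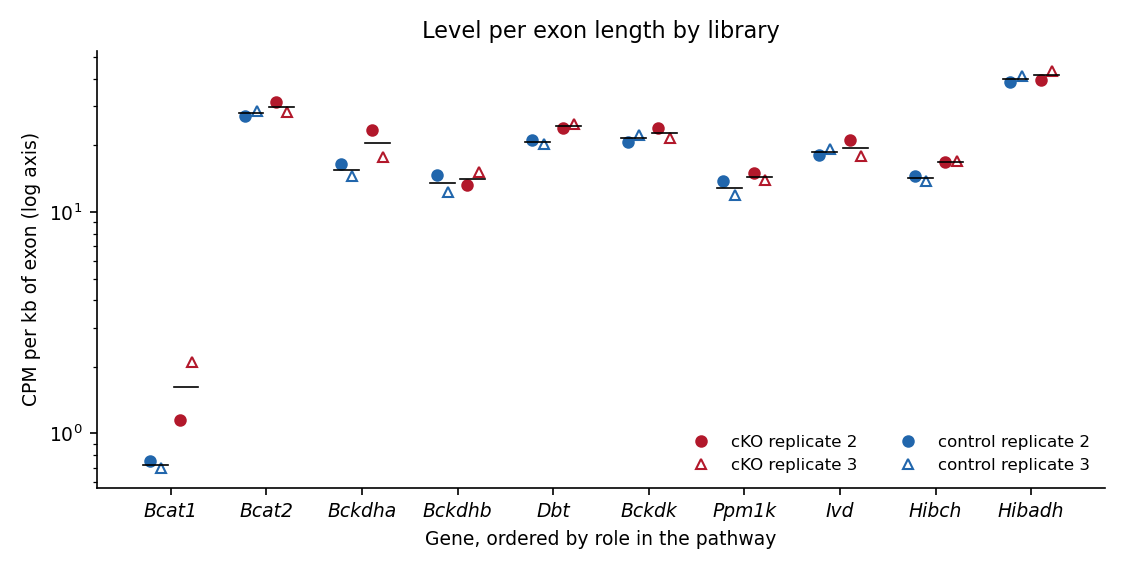
Each point is the level of a member in 1 library in CPM per kilobase of exon on a log axis, with cKO in red, control in blue and a black bar at the mean of each group of 2. Bcat1 lies between 0.70 and 2.10, and every other member lies between 11.9 and 43.6 on this exon length, that of the transcripts listed in the deposited table.

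The rest of the route was described with a list of 20 further enzymes of branched-chain amino acid breakdown. None passed the test, and DESeq2 and limma-voom called 0. At an unadjusted p under 0.05 there were 4, against 6.97% of all genes. Log2 fold changes were above 0 for 18 of 20, against 49.9% of all genes, and ran from -0.17 to 0.27. Their median was 0.12 (0.079 without control replicate 3, 0.17 without cKO replicate 3). In 9 of the 20 both cKO libraries were above both controls, against 19.4% of all genes. In 0 both were below, against 18.8%. Echs1, the enoyl-CoA hydratase that also serves fatty acid oxidation, had 150 and 146 CPM in cKO and 124 and 122 CPM in control (log2 fold change 0.27 ± 0.078, adjusted p = 0.481). Auh, a hydratase of the leucine branch, stood at 0.24 ± 0.097 on the log2 fold change scale (adjusted p = 0.680), and Aldh6a1, the dehydrogenase at the end of the valine branch, one of 0.23 ± 0.095 (adjusted p = 0.699).

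Carriers bring these amino acids across membranes, and none of 6 passed (2 at an unadjusted p under 0.05, 0 by DESeq2 or limma-voom). Slc3a2, the heavy chain that pairs with the light chain Slc7a5 at the cell surface, had 58.0 and 73.0 CPM in cKO and 49.8 and 47.2 CPM in control (log2 fold change 0.44 ± 0.12, adjusted p = 0.430). Slc7a5 had 51.5 and 67.8 CPM in cKO and 40.0 and 52.2 CPM in control, which overlap (0.38 ± 0.16, adjusted p = 0.707). Leaving out cKO replicate 3 gave a log2 fold change of 0.16, and leaving out control replicate 3 gave 0.59. Slc3a2 and Slc7a5 were both highest in cKO replicate 3. Slc43a1, another carrier of large neutral amino acids, stood at -0.15 ± 0.12 (adjusted p = 0.842). Slc25a44, the mitochondrial carrier of branched-chain amino acids, had 26.7 and 27.7 CPM in cKO, between the controls at 23.6 and 29.7 CPM (0.031 ± 0.13, adjusted p = 0.972). The median of the carriers was 0.015, and its sign rests on single libraries: leaving out control replicate 2 gave -0.069, and leaving out control replicate 3 gave 0.16.

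Protein synthesis is the other main use of these amino acids. Of 6 tRNA synthetases for leucine, isoleucine and valine none passed (1 at an unadjusted p under 0.05, 0 by DESeq2 or limma-voom), with a median of 0.10 (0.031 without control replicate 2, 0.15 without control replicate 3). Lars, the cytosolic enzyme for leucine, had 109 and 122 CPM in cKO and 87.7 and 86.9 CPM in control (0.41 ± 0.090, adjusted p = 0.180). Iars for isoleucine and Vars2, the mitochondrial enzyme for valine, had log2 fold changes of 0.20 ± 0.099 and 0.19 ± 0.11 (adjusted p = 0.742 and 0.768). Of 19 genes of leucine sensing and the growth kinase complex mTORC1 none passed (1 at an unadjusted p under 0.05, 0 by DESeq2 or limma-voom), with a median of 0.018 (-0.011 without control replicate 2, 0.078 without cKO replicate 3). The nuclear pore and GATOR protein Seh1l had -0.24 ± 0.079 (adjusted p = 0.568), and the sestrins Sesn1 and Sesn2 had 0.19 ± 0.11 and 0.25 ± 0.15 (both adjusted p = 0.765).

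Transcription factors and coactivators linked to these genes made up a list of 8, of which none passed (2 at an unadjusted p under 0.05, 0 by DESeq2 or limma-voom), with a median of 0.015 (-0.093 without cKO replicate 3, 0.15 without control replicate 3). Atf4, the factor of the amino acid response, had 107 and 125 CPM in cKO and 94.2 and 81.3 CPM in control (0.41 ± 0.11, adjusted p = 0.393). Mycn, the MYC family factor of the growing heart muscle, had 33.8 and 43.1 CPM in cKO and 48.0 and 50.8 CPM in control (-0.35 ± 0.12, adjusted p = 0.623). Ppara, a regulator of fatty acid oxidation, was low throughout, at 1.72 and 2.91 CPM in cKO and 2.96 and 3.42 CPM in control (-0.41 ± 0.36, adjusted p = 0.859).

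**Figure D4:**
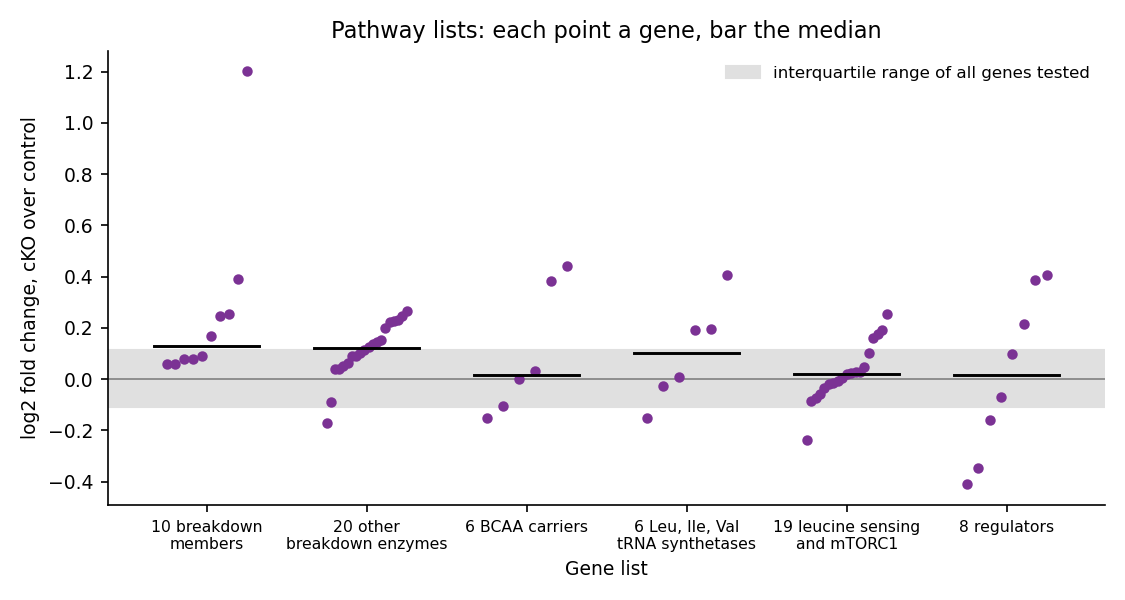
Each point is the log2 fold change, cKO over control, of 1 gene in the 6 lists, sorted within a list, the bar is the list's median, and the grey band spans the interquartile range of all genes tested, -0.11 to 0.12. All 10 breakdown members and 18 of 20 further enzymes lie above 0, while carriers, sensors and regulators lie on both sides.

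Of 10 endothelial and endocardial markers none passed the test (6 at an unadjusted p under 0.05, 0 by DESeq2 or limma-voom). All 10 had log2 fold changes below 0 (median -0.22) and summed to 1527 and 1410 CPM in cKO and 1638 and 1762 CPM in control. The 8 epicardial markers summed to 354 and 265 CPM in cKO and 335 and 374 CPM in control, which overlap. Log2 fold changes were below 0 for 7 of the 8, and 3 markers had an unadjusted p under 0.05. The epicardial median was -0.29 (-0.12 without control replicate 3, -0.43 without cKO replicate 2). In the list 1 marker passed, the keratin gene Krt19, which fell from 41.4 and 45.4 to 25.4 and 17.9 CPM (adjusted p = 0.0347). It passed in 7 of 13 alternatives; the call was lost without control replicate 3 (adjusted p = 0.260), control replicate 2 (0.108) or cKO replicate 3 (0.0754), with no filter (0.0620), with a mean of at least 5 CPM (0.0601) and against a 1.5-fold change (0.573). The 6 smooth muscle and pericyte markers summed to 828 and 957 CPM in cKO and 1261 and 1271 CPM in control. Of the 5 that could be tested none passed (3 at an unadjusted p under 0.05), while DESeq2 called 2, Acta2 and Tagln, and limma-voom 1, Acta2. The median of these 5 was -0.22, and 4 of them lay below 0. None of the markers in these 3 lists was at 0 in every library. The median of the 13 heart muscle markers was -0.063, and 0.040 without control replicate 2. The part of cell makeup in the members' small differences was not tested.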

How the data were processed

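Polyadenylated RNA of single ventricles was sequenced as single reads of 75 bases from 500 ng of total RNA, per the labels' protocols. The authors deposited expected counts in 1 table, estimates per gene that need not be whole. RSEM 1.2.3 after cutadapt 1.3 and CASAVA 1.8.2, on GRCm38, are listed per the submitters' processing notes; which annotation and settings applied is not given in the sources used here. Since strand handling is not stated, overlapping genes on opposite strands were treated as not separable.

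Symbols and positions came from GENCODE M21 (36345 of 38293 identifiers matched). Counts were rounded, filtered by edgeR's filterByExpr (minimum count 10, minimum total 15), scaled by TMM and tested with edgeR 4.0.16 (glmQLFit and glmQLFTest, R 4.3.3) by group, with a threshold of 0.05. Each SE was derived from the log2 fold change and the root of its F statistic. Intervals use a t distribution on 2 residual and 6.14 prior degrees of freedom and are not adjusted. Differences of single libraries use log2 CPM with a prior count of 2. Levels per kilobase use the exons of the transcripts that the deposited table lists (2 of 7 were found for Bcat2). BLAST 2.17.0 found no other gene matching a member's transcripts at 95% identity over 300 bases on the same strand. Reads had 75 bases, so that search cannot exclude reads shared through shorter matches or the other strand. Dbt and Ppm1k, each with 1 listed transcript, had expected counts that were not whole in 4 of 4 libraries, so some of their reads may be shared with other genes. Those of Bckdha and Bckdhb, also with 1 listed transcript, were whole. Bcat1 shares 337 exon bases with the antisense gene Gm26666, which had at most 5.11 counts. The steps were also run on simulated counts with known fold changes, and the share recovered is not given here. With 2 libraries per group, a gene that did not pass is not thereby shown to be unchanged.

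The members and lists were chosen with earlier results of these data known. Named genes were the members, Hif1a, Nkx2-5, Dld, Slc25a44, any gene past the threshold or the 3 smallest p in each pathway list, and the smallest p in each marker list. Alternatives were the size factors and the test of DESeq2 1.42.0, upper-quartile scaling, other filters, limma-voom (limma 3.58.1), glmTreat with a 1.5-fold threshold, a replicate block, thinning, and each library left out. Summing Bckdha with B3gnt8 and counting exons of all GENCODE transcripts were added after the data were seen.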

Additional observations from a re-analysis of the deposited data

How the results depend on the processing

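Where 1 library is left out, the spread of the remaining single library is taken to equal that of the intact group. Over all genes 70 were called (20 higher, 50 lower); a mean of at least 5 CPM gave 10 higher, DESeq2 31 higher, and a 1.5-fold threshold 33 in all, 18 of them lower. Leaving out 1 library gave 39 (without control replicate 3) to 141 calls (without cKO replicate 2), 15 to 72 higher and 24 to 69 lower, and 0 to 1 members, the 1 being Bcat1 without cKO replicate 2; the cause was not tested. The members' median was 0.13, with 0.13 to 0.24 when 1 library was left out, and 8 to 10 members stayed above 0. Bckdhb ran from -0.051 to 0.21, Ivd from -0.057 to 0.17, Hibadh from -0.019 to 0.13, Slc25a44 from -0.12 to 0.21, Slc3a2 from 0.26 to 0.59, Mycn from -0.55 to -0.19 and Mrc1, the immune marker with the smallest p, from -1.28 to 0.14. The pathway lists beyond the members had 0 calls in all 13 alternatives. The replicate block gave 75 calls, 0 of them members, and Bcat1 at 1.14 (adjusted p = 0.132); deviations from group means correlated at 0.106 between libraries of the same number, and nothing in the labels says what a number marks.

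Ratios per kilobase moved with the length used. With the longest transcript, Bcat2 to Bcat1 was 32.6 in control and Bckdk to Ppm1k 1.71 in cKO. With exons of all GENCODE transcripts, Bcat2 to Bcat1 was 9.28 in cKO and 17.6 in control, Bckdk to Ppm1k 1.71 in cKO, Bckdha to Bckdhb 1.41 in control, and Dbt to Bckdhb 2.10 in cKO and 1.86 in control. Depth limits Bcat1 most, at 58.6 and 59 counts in the controls.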

Other observations

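The 10 members together summed to 626 and 603 CPM in cKO replicates 2 and 3 and to 553 and 550 CPM in control replicates 2 and 3. The 20 further breakdown enzymes summed to 2551 and 2516 CPM in cKO and 2398 and 2287 CPM in control. Within cKO the members did not move together: replicate 3 minus replicate 2 was 0.86 on the log2 scale for Bcat1 and -0.40 for Bckdha.

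Among the other marker lists, the 7 immune markers summed to 96.0 and 69.0 CPM in cKO and 90.4 and 99.3 CPM in control. The 5 neural crest and neural markers summed to 14.5 and 16.7 CPM in cKO and 16.7 and 13.6 CPM in control, with Foxd3 at 0 in every library. The 6 liver markers summed to 2.53 and 2.26 CPM in cKO and 0.473 and 0.662 CPM in control, with Serpina1a at 0 in every library. Of the 6 only Apoa2 was tested, near the floor, on 16 and 21 expected counts in cKO and 1 and 5 in control. In these lists and those named above, the markers with the smallest p that have not been given were Actn2 (log2 fold change -0.20), Flt1 (-0.29), Acta2 (-0.63), Elavl4 (-0.24) and Apoa2 (1.89), none past the test; Acta2 passed under 5 of 13 alternatives.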
